A study of Homo sapiens with 4 samples.

Results

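The 10 genes described here were *FOS*, *FOSB*, *FOSL1* and *FOSL2* of the Fos family, *JUN*, *JUNB* and *JUND* of the Jun family, and the immediate early genes *EGR1*, *IER2* and *IER3*. They were chosen by name, with no threshold on their values but with earlier results of these data known. They were 10 of 46660 gene identifiers in the deposited RNA-seq table. All 10 had at least 10 reads in every library. The libraries came from U87MG and U251MG, 2 established human glioblastoma cell lines, each cultured as a control and as a *FLI1* knockdown. *FLI1* encodes a transcription factor of the ETS family. Knockdown cells (shFLI1) had been infected with a lentivirus made from the pGreen plasmid with short hairpin RNA against *FLI1* inserted, and control cells, titled shControl, are described by the submitters as carrying the empty vector. Both groups had passed puromycin selection and were collected as mixed stable populations. The labels do not say which of the 2 designed hairpins a knockdown library carries. Each cell line contributed 1 control and 1 shFLI1 library, so that no difference within a cell line had a replicate check.

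AP-1 is a dimer of leucine zipper proteins, and a Jun protein pairs with another Jun or with a Fos protein to bind DNA. In glioma cells it is known as a mediator of growth factor and stress signals. Many genes of this group are immediate early genes: their transcription rises within minutes of serum, growth factor or stress signals through ERK, JNK and p38 kinases, and their RNAs are short-lived. The time between the last change of medium and harvest was not given in the sources used here.

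The libraries held 12229780 counts (U87MG control), 21250153 (U87MG shFLI1), 18108612 (U251MG control) and 28891055 (U251MG shFLI1) over linear RNAs. The knockdown library was thus 1.74 times as deep as its control in U87MG and 1.60 times in U251MG. *FLI1* itself, as TMM-normalized read counts relative to library size (CPM), was 9.34 CPM in the U87MG control and 2.34 CPM in U87MG shFLI1, and 12.1 CPM and 3.71 CPM in the corresponding U251MG libraries. Among glioblastoma cell markers, *VIM* ranged from 3084 to 7004 CPM over the 4 libraries and *CD44* from 1044 to 1741 CPM. In the same list *OLIG2* (0 to 2 reads a library) and *S100B* (1 to 11 reads) were nearly absent. The astrocyte filament gene *GFAP* was 634 CPM in the U87MG control, 1587 CPM in U87MG shFLI1, 20.4 CPM in the U251MG control and 93.8 CPM in U251MG shFLI1. Markers of other cell types were low apart from *KRT18* and *SYT1*, which made up nearly all of the epithelial and neuron lists, and the defining genes *PTPRC*, *PECAM1*, *CDH1* and *RBFOX3* stayed at or near 0. The leukocyte list summed to 1.4, 0.899, 1.46 and 2.54 CPM, and the endothelial list to 5.94, 3.33, 0.841 and 1.04 CPM, in the order U87MG control, U87MG shFLI1, U251MG control and U251MG shFLI1. In that order the neuron list summed to 19.4, 12.4, 30.1 and 23.7 CPM and the epithelial list to 138, 85.3, 249 and 170 CPM. The part of these differences, and of the unequal depth, in the values of the 10 genes was not tested beyond the thinning given with the limits.

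The bases just before the transcription start are shown for *EGR1* and *FOS*, whose log2 fold changes in CPM had opposite signs in the 2 cell lines, and for *JUNB*, which passed the test of a shared effect and was added after its values had been seen. The sequences are from RefSeq (GRCh38.p14), 150 bases each, 5′ to 3′ on the plus strand, which is the strand of all 3 genes. Capitals mark a CArG box, the element bound by serum response factor.
EGR1, chr5:138465329-138465478: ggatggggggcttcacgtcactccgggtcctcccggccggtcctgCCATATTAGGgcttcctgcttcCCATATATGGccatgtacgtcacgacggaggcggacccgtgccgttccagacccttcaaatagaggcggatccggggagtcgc
FOS, chr14:75278678-75278827: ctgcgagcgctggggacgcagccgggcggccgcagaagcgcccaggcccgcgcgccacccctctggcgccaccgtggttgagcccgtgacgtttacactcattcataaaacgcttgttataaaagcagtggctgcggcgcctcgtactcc
JUNB, chr19:12791336-12791485: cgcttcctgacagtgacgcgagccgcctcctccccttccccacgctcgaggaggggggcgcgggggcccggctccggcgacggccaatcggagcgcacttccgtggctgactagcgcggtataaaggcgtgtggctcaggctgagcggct

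Motifs were searched on both strands of these 150-base windows, which the RefSeq table gave for 8 of the 10 genes and not for *FOSL1* or *IER3*. The 4 motifs were the CArG box, the cyclic AMP response element TGACGTCA, the AP-1 element TGANTCA and CCGGAA, a core bound by ETS factors. *EGR1* held 2 CArG boxes, at bases -105 to -96 and -83 to -74 from the start, whereas 0.769% of 35116 promoter windows held any. *IER2* held CCGGAA on the minus strand at bases -26 to -21, a motif found in 11.1% of windows. None of the 4 motifs was present in the windows of the other 6 genes. Only exact matches were sought. GGAA with other flanking bases, held by the windows of *FOSB*, *FOSL2*, *JUN*, *JUNB*, *EGR1* and *IER2*, was not counted. Neither were near matches, such as TGACGTTT in *FOS* and TGACATCA in *JUN*, and bases further upstream were not searched. TGACGTCA was in 1.4% and TGANTCA in 4.17% of all windows. A match describes letters in this window and not a bound site.

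Levels were compared between genes per length, as FPKM, the authors' fragment count scaled to RNA length and library size. *JUND* had the highest mean over the 4 libraries at 80.4 FPKM (range 63.6 to 94.1), followed by *JUN* at 58.7 (47.6 to 74.4), *IER2* at 52.0 (44.8 to 62.9) and *JUNB* at 40.3 (28.1 to 59.9). *FOSL1* averaged 27.9 FPKM (10.5 to 39.6), *FOSL2* 20.6 (13.9 to 27.5), *IER3* 15.4 (3.28 to 32.7) and *EGR1* 8.31 (4.56 to 14.8). *FOS* and *FOSB* were lowest, at 1.31 (0.73 to 2.05) and 1.23 FPKM (0.63 to 2.78). The ranges of neighbours in this order overlapped throughout, except between *EGR1* and *FOS*.

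**Figure D1:**
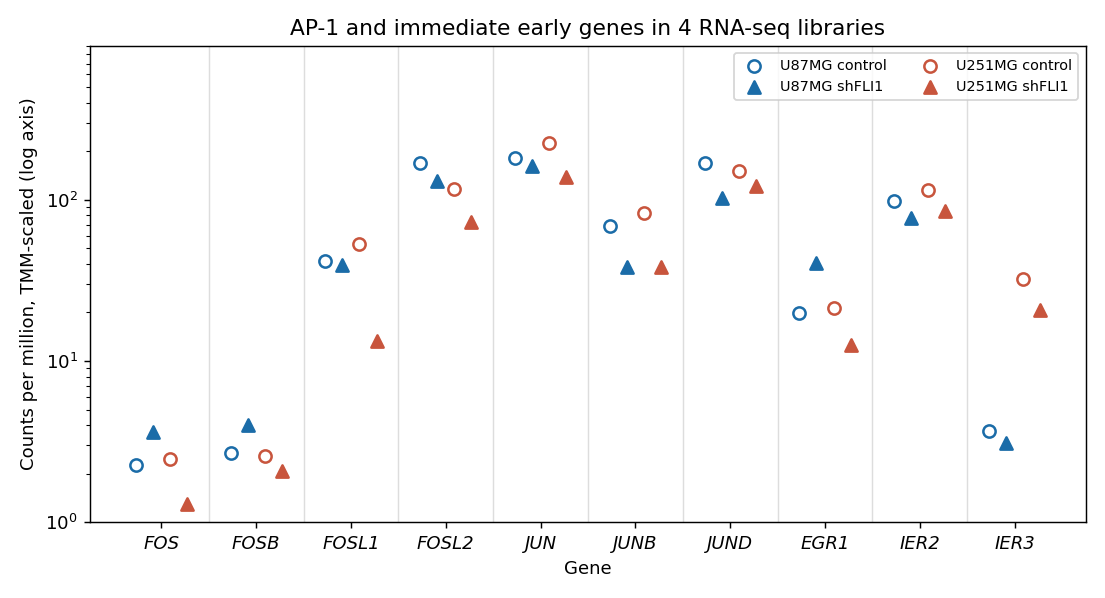
TMM-scaled CPM (vertical log axis) of the 10 genes in the 4 libraries. Open circles are controls and filled triangles shFLI1 libraries, in blue for U87MG and orange for U251MG, and each point is 1 library. The U251MG triangle lies below its circle for all 10 genes, most for *FOSL1* (53.5 to 13.3 CPM), while the U87MG triangle lies above its circle for *FOS*, *FOSB* and *EGR1*.

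In U251MG, shFLI1 values were below control for all 10 genes, and in U87MG for 7, the exceptions being *FOS*, *FOSB* and *EGR1*. The median log2 fold change of the 10 genes was -0.70 in U251MG, where the median of all 18222 genes tested was 0.04, and -0.20 in U87MG, where it was 0.06 over 17355 genes. A gene was called changed within a cell line when its fold change exceeded 2 and the 95% exact (Clopper-Pearson) interval of the ratio left 0 on the log2 scale. In U87MG 1 of the 10 genes was called, *EGR1* (higher), and 11.4% of all genes tested were called in either direction, so that the share of the 10 was near the background. In U251MG 2 were called, *FOSL1* and *JUNB* (both lower), against 8.17% of all genes. The interval lay below 0 for 9 genes in U251MG and for 5 in U87MG, and above 0 for 2 in U87MG. The share of all genes with an interval off 0 was not counted, so these numbers have no background. With many reads a small shift sufficed, as for *JUN* in U87MG at -0.17 (-0.24 to -0.09). These intervals cover counting error only, since reads were PCR products without molecular identifiers and each arm had 1 library. In bulk RNA, fewer cells carrying a transcript and less of it per cell cannot be told apart.

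Across both cell lines, a shared effect of shFLI1 was estimated over 16649 genes in edgeR (quasi-likelihood test, Benjamini-Hochberg adjustment), with cell line as a block and 1 residual degree of freedom. It called 509 genes, 3.06% of those tested. *JUNB* alone of the 10 passed (lower), and 7 of the 10 had an unadjusted P below 0.05, as did 2751 genes in all. The only replication in this test is that of the 2 cell lines, and edgeR moderated each gene's spread toward a trend over all genes tested. The SE and adjusted P are therefore not a measure of the spread between the cell lines alone. Each SE was derived from the test, as the absolute log2 value divided by the square root of the F statistic. Nothing in the labels says that the libraries came from separate cultures.

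**Figure D2:**
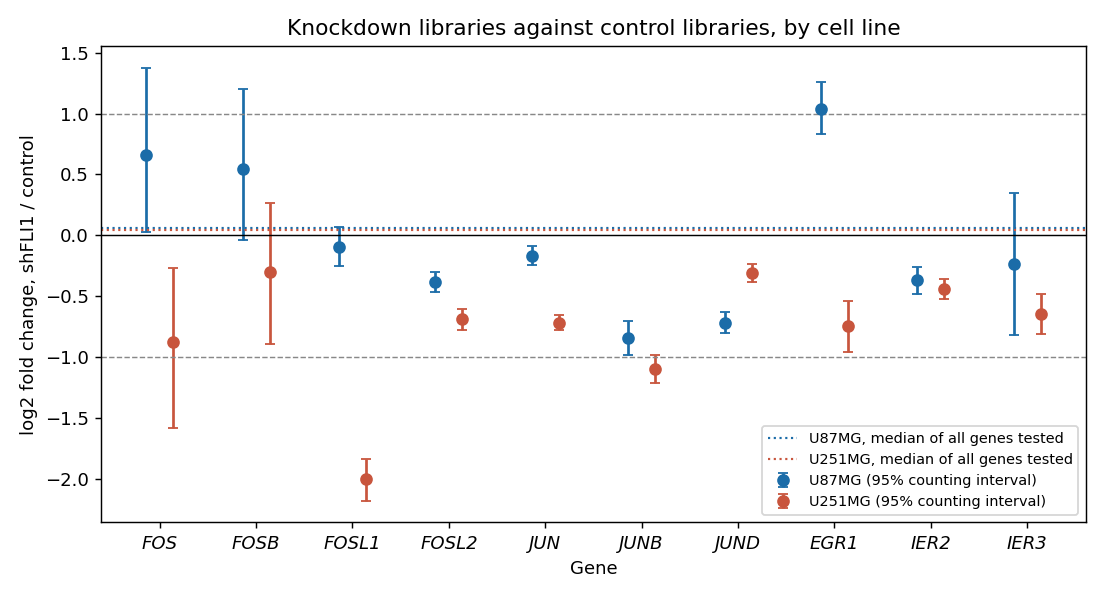
The log2 fold change of shFLI1 over control (vertical axis) for each gene, in U87MG (blue) and U251MG (orange), with bars for the 95% exact intervals of counting error. The U251MG values run from -2.00 (*FOSL1*) to -0.30 (*FOSB*), and the U87MG values from -0.84 (*JUNB*) to 1.04 (*EGR1*).

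*FOS* (chr14:75278828-75282230, GRCh38) encodes the founding Fos protein, induced rapidly by serum. It had 26 reads in the U87MG control (2.27 CPM), 81 in U87MG shFLI1 (3.64 CPM), 44 in the U251MG control (2.47 CPM) and 39 in U251MG shFLI1 (1.3 CPM). The controls were close to each other, and the shFLI1 library was the highest of the 4 in U87MG and the lowest in U251MG. The log2 fold change was 0.66 (95% interval 0.03 to 1.38) in U87MG and -0.87 (-1.58 to -0.27) in U251MG. At these read numbers both intervals were wide, and the value of the shared effect was -0.14 ± 0.45 (SE, edgeR adjusted P = 0.92).

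*FOSB* (chr19:45467996-45475179) encodes a Fos protein with a shorter splice form, and had 31, 89, 46 and 62 reads in the order U87MG control, U87MG shFLI1, U251MG control and U251MG shFLI1. This was 2.71, 4.0, 2.58 and 2.07 CPM, highest in U87MG shFLI1 and lowest in U251MG shFLI1, as for *FOS*. On the log2 scale shFLI1 minus control was 0.55 (-0.04 to 1.2) in U87MG and -0.30 (-0.89 to 0.27) in U251MG, and both intervals included 0. Its reads were assigned to different RNAs in the controls and in the knockdowns. NM_006732 had 0 reads in both controls, and 75.35 estimated reads in U87MG shFLI1 (84.7% of the gene) and 46.69 in U251MG shFLI1 (75.3%). Against a floor of 3 counts per library, these were at least 12.9-fold and 9.27-fold higher than in the controls. XM_005258691 went from 24.2 to 12.81 estimated reads in U87MG and from 46 to 14.31 in U251MG, 3.67-fold and 5.40-fold lower in CPM. These are estimates of how the authors' tool divided fewer than 100 reads a library among overlapping RNAs, with no replicate.

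*FOSL1* (chr11:65892049-65900545), which encodes FRA-1, had the largest log2 fold change of the 10 genes. It had 481 reads in the U87MG control, 876 in U87MG shFLI1, 953 in the U251MG control and 398 in U251MG shFLI1, or 42.0, 39.4, 53.5 and 13.3 CPM. The other libraries lay between 39.4 and 53.5 CPM and U251MG shFLI1 stood below them, at 24.9% of its control. As log2 fold changes, the values were -2.00 (-2.18 to -1.84) in U251MG and -0.09 (-0.26 to 0.07) in U87MG, the latter becoming 0.07 with scaling to total counts and 0.06 with FPKM. The main RNA, NM_005438, held from 74.1% to 82.7% of the reads and was 4.49-fold lower in U251MG shFLI1. The shared effect was -1.06 ± 0.37 (SE, edgeR adjusted P = 0.187). Among the alternative settings it passed only where a single count in any library sufficed (edgeR adjusted P = 1.16e-06).

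*FOSL2* (chr2:28392858-28417317) encodes FRA-2, the Fos protein with the most reads here. It had 1944, 2895, 2094 and 2179 reads in the same order of libraries, or 169.8, 130.2, 117.5 and 72.8 CPM. Each shFLI1 library was below its control, and both U251MG libraries were below both U87MG libraries. The log2 fold change was -0.38 (-0.47 to -0.30) in U87MG and -0.69 (-0.78 to -0.60) in U251MG, with a shared effect of -0.55 ± 0.14 (SE, edgeR adjusted P = 0.0901).

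*JUN* (chr1:58780791-58784047) encodes c-Jun, the partner that JNK phosphorylates. It had 2078, 3597, 4033 and 4117 reads, or 181, 162, 226 and 137 CPM. The U251MG libraries held the highest and the lowest value, with the U87MG libraries between them. On the log2 scale shFLI1 minus control was -0.17 (-0.24 to -0.09) in U87MG, which came to -0.01 with scaling to total counts or with FPKM, and -0.72 (-0.78 to -0.66) in U251MG. The shared effect was -0.46 ± 0.17 (SE, edgeR adjusted P = 0.219).

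*JUNB* (chr19:12791486-12793315) encodes a Jun protein that can restrain c-Jun. It had 787 reads in the U87MG control, 852 in U87MG shFLI1, 1472 in the U251MG control and 1154 in U251MG shFLI1, or 68.7, 38.3, 82.6 and 38.5 CPM. Both shFLI1 libraries lay near 38 CPM, below both controls without overlap. As log2 fold changes, the values were -0.84 (-0.98 to -0.70) in U87MG and -1.10 (-1.21 to -0.99) in U251MG, which was -0.87 with log2(FPKM + 1) and -0.88 with log2(FPKM + 0.1), short of the 2-fold threshold. The U87MG value was -0.53 and -0.54 on these FPKM scales. The FPKM sums include URS00008BB095, an RNA with at most 0.89% of the gene's reads in any library. It held 0, 2.9, 8.27 and 7.15 FPKM in the order U87MG control, U87MG shFLI1, U251MG control and U251MG shFLI1. In that order the main RNA, NM_002229, held 40.93, 25.23, 51.63 and 25.27 FPKM. The shared effect was -0.99 ± 0.14 (SE, edgeR adjusted P = 0.0101), and over 7 alternatives the adjusted P ran from 7.95e-07 to 0.678, the latter in the fit without the cell line block.

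*JUND* (chr19:18279694-18281622) encodes the Jun protein least dependent on stimulation. It had 1924, 2273, 2670 and 3621 reads, or 168, 102, 149.8 and 121 CPM. Both shFLI1 libraries were below both controls, with the larger difference in U87MG. Log2 fold changes were -0.72 (-0.81 to -0.63) in U87MG and -0.31 (-0.38 to -0.24) in U251MG, and the shared effect was -0.53 ± 0.16 (SE, edgeR adjusted P = 0.126). Its reads were split equally between 2 RNAs that were summed here.

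In FPKM, the 7 Fos and Jun genes summed to 251.3 in the U87MG control, 206 in U87MG shFLI1, 283 in the U251MG control and 181 in U251MG shFLI1. The Jun genes made up most of this sum in every library, at 76.3%, 71.7%, 78.6% and 85.8% in that order. The ratio of summed Jun to summed Fos FPKM was 3.22, 2.53, 3.67 and 6.02, and was highest in U251MG shFLI1. There *FOSL1* held 5.82% of the sum, against 14% in its control, while in U87MG it held 15.3% with shFLI1 and 12.0% without. *JUND* held 37.5% and 30.8% in the U87MG control and shFLI1 libraries, and 31.2% and 41.6% in those of U251MG. With the most counted RNA of each gene alone, *JUND* held 24.6%, 20.2%, 20.2% and 29.0%, below *JUN* at 29.6%, 35.7%, 33.9% and 36.7%. That setting leaves out 50% of the reads of *JUND*, which were split equally between its 2 RNAs. Its place above *JUN* holds with these 2 RNAs summed. *FOS* and *FOSB* each held under 1.5% in all 4 libraries, and 1.59 of the 2.78 FPKM of *FOSB* in U87MG shFLI1 came from a short RNA with 0.84 estimated reads. Shares of RNA do not give shares of protein or of dimers.

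**Figure D3:**
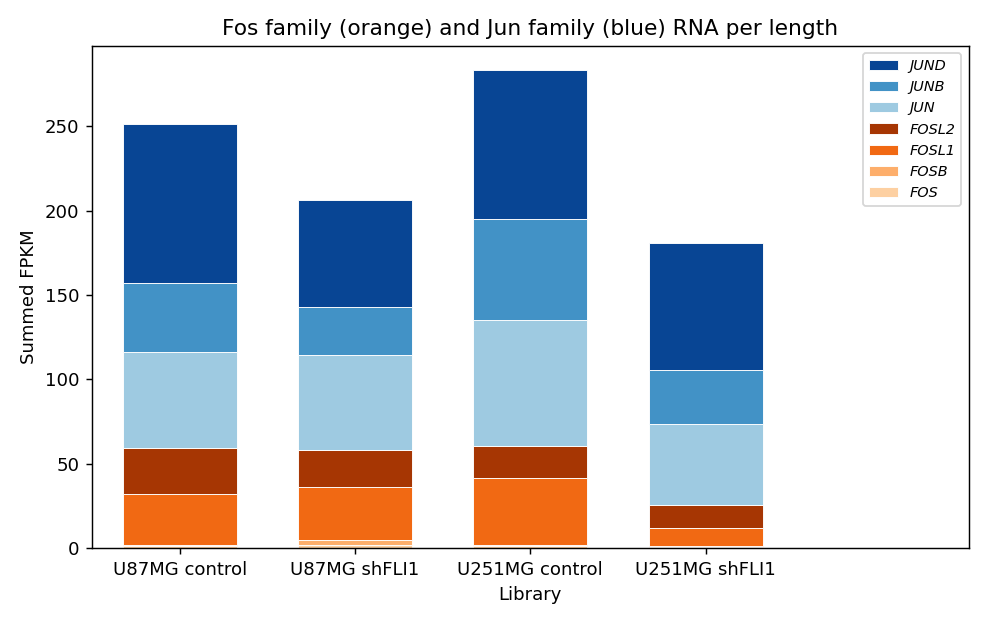
Summed FPKM (vertical axis) of the 4 Fos genes (orange shades) and the 3 Jun genes (blue shades) in each library, as stacked bars from 0. The bars reach 251.3 and 206 in the U87MG control and shFLI1 libraries and 283 and 181 in those of U251MG, and the Jun part is the larger in all 4.

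*EGR1* (chr5:138465479-138469303) encodes a zinc finger factor that is a standard readout of ERK and serum response factor activity. It had 226 reads in the U87MG control, 903 in U87MG shFLI1, 379 in the U251MG control and 379 in U251MG shFLI1, or 19.7, 40.6, 21.3 and 12.7 CPM. The controls were close to each other, and the shFLI1 libraries were the highest and the lowest. In U87MG *EGR1* was 2.06-fold higher with shFLI1, a log2 fold change of 1.04 (0.83 to 1.26), which was 0.97 and so just short of the 2-fold threshold after the shFLI1 library was thinned to the depth of its control. In U251MG it was at 59.5% of control, a log2 fold change of -0.74 (-0.96 to -0.54). The shared effect was 0.13 ± 0.35 (SE, edgeR adjusted P = 0.9). Opposite signs in the 2 cell lines were common, in 36.5% of the 16384 genes tested in both. The gap for *EGR1* (-1.78, U251MG minus U87MG) was still among the wider ones, with 2.07% of genes lower. That of *FOSL1* was wider, at -1.91 with both values below 0, and that of *FOS* was -1.53. None of these gaps could be tested, since 4 libraries leave no residual degree of freedom for them.

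*IER2* (chr19:13150411-13154911), an immediate early gene for a nuclear protein, had 1133, 1703, 2057 and 2545 reads, or 98.9, 76.6, 115 and 85.0 CPM. Each shFLI1 library was below its control. On the log2 scale shFLI1 minus control was -0.37 (-0.48 to -0.26) in U87MG and -0.44 (-0.53 to -0.36) in U251MG, and the shared effect was -0.42 ± 0.14 (SE, edgeR adjusted P = 0.157). The U87MG value was -0.21 with scaling to total counts and -0.18 with both FPKM scales, where U251MG gave -0.37 and -0.35.

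*IER3* (chr6:30743199-30744547), a stress-induced gene with a role in cell survival, had 42 reads in the U87MG control, 69 in U87MG shFLI1, 577 in the U251MG control and 619 in U251MG shFLI1. At 3.67 and 3.10 CPM in U87MG and 32.4 and 20.7 CPM in U251MG, the cell lines were far apart. The log2 fold change with shFLI1 was -0.23 (-0.82 to 0.35) in U87MG and -0.64 (-0.81 to -0.48) in U251MG, and the shared effect was -0.51 ± 0.20 (SE, edgeR adjusted P = 0.256). The table splits its reads equally among 4 entries of the same RNA, which were summed.

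The same edgeR model tested U251MG against U87MG, and 18.6% of genes passed. Of the 10 genes, *IER3* (log2 difference 2.85 ± 0.21, SE, adjusted P = 8.11e-05) was higher in U251MG and *FOSL2* (-0.76 ± 0.14, adjusted P = 0.00851) was lower. The difference for *FOSL2* had an adjusted P of 0.206 in the fit that left out the knockdown term. *JUN*, *JUNB*, *JUND* and *IER2* had log2 differences from -0.03 to 0.11 and did not pass. *EGR1* (-0.89), *FOS* (-0.80), *FOSL1* (-0.67) and *FOSB* (-0.61) did not pass either, and for the first 3 the cell lines differed by 0.11, 0.12 and 0.35 between controls but by -1.67, -1.42 and -1.56 between shFLI1 libraries.

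Genes whose pattern over the 4 libraries lay nearest to *FOS*, *FOSL1*, *JUN* and *EGR1* were sought among 9772 genes with at least 100 counts in each library, by Euclidean distance between centred log2 CPM values. Nearest to *EGR1* was *DUSP6* (distance 0.326), which encodes an ERK phosphatase and stood at 0.80 (U87MG) and -0.37 (U251MG) as log2 fold change. *MYEOV* (0.368) and *RCL1* (0.436) followed. Near *FOSL1* lay *PARP14* (0.333) and the growth factor gene *TGFA* (0.427). Nearest to *JUN* were *TXNDC12* (0.0540), *TIPARP* (0.0790) and *PLCL2* (0.0809), and nearest to *FOS* were *WSCD1* (0.218), *SPAG17* (0.237) and *TGFBI* (0.262). With 4 points per gene these distances are a description.

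Among 41 other immediate early genes, 39 were tested, and 7 passed the edgeR test of a shared effect, all lower with shFLI1. The 4 with the largest difference in both cell lines were *GADD45B*, a stress sensor (-1.14, adjusted P = 0.00614), *ID1*, an inhibitor of basic helix-loop-helix factors (-0.90, adjusted P = 0.0205), *CEBPD*, a leucine zipper factor (-0.94, adjusted P = 0.0182), and *DUSP1*, a phosphatase of JNK and p38 (-0.84, adjusted P = 0.026). *GADD45B* was past 2-fold in both cell lines, at -1.01 and -1.23. The median log2 fold change of the 39 was -0.28 in U87MG, with 1 called higher and 2 lower (*GADD45B* and *CEBPD*), and -0.42 in U251MG, with 0 higher and 5 lower (*GADD45B*, *DUSP1*, *IER5L*, *PLK2* and *NFKBIZ*). *EGR2*, called higher in U87MG, had 6 reads in the control and 41 with shFLI1.

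**Figure D4:**
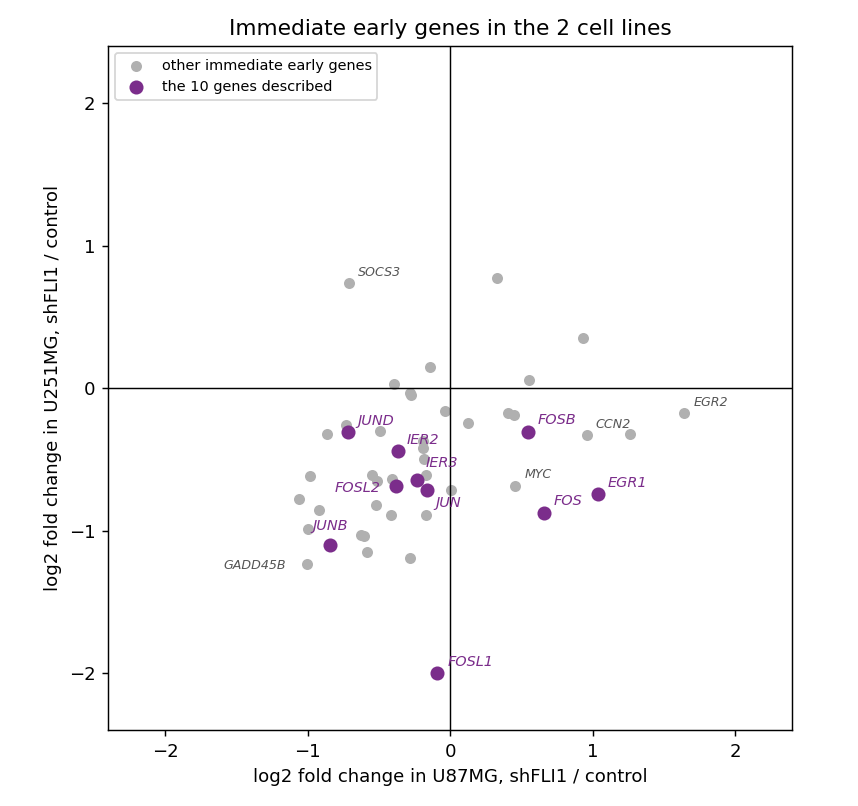
The log2 fold change of shFLI1 over control in U87MG (horizontal axis) and U251MG (vertical axis) for the 10 genes (purple) and for the other immediate early genes tested in both cell lines (grey). *FOS*, *FOSB* and *EGR1* lie in the lower right (higher in U87MG, lower in U251MG), *FOSL1* at the bottom (-2.00 in U251MG), and *GADD45B* and *JUNB* at the lower left.

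Of 16 dimer partners of AP-1 proteins, 15 were tested and 3 passed the shared test, all lower. *DDIT3* (CHOP) was at -1.21 (adjusted P = 0.0142) and *JDP2*, a Jun dimerization protein, at -1.19 (adjusted P = 0.0458). *BATF2*, a leucine zipper gene known to respond to interferon, had 37 and 6 reads in the U87MG control and shFLI1 libraries and 82 and 3 in those of U251MG (adjusted P = 0.00565), and its log2 fold change was -3.18 (-5.12 to -2.33) and -4.57 (-7.83 to -3.92). The medians of the 15 were -0.33 in U87MG and -0.35 in U251MG.

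Genes upstream of AP-1 were mostly not called. None of 7 tested genes of serum response factor and its partners was called in either cell line or in the shared test, and the members with the highest mean CPM, *SRF* (-0.17 in U87MG and -0.26 in U251MG) and *ELK4* (0.35 and 0.33), had small log2 fold changes. Of 23 kinases upstream of AP-1, *MAP2K6*, a p38 activator, was called higher in both cell lines (log2 fold change 1.23 in U87MG and 1.93 in U251MG) and passed the edgeR test of a shared effect (adjusted P = 0.0122), and no other was called. None of 11 coactivators and turnover factors was called, and the most abundant, *NACA* (0.30 and 0.26) and *CREBBP* (0.15 and 0.04), lay slightly above control. The medians of these 3 lists lay between 0.06 and 0.16 in both cell lines.

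Of 30 genes known as AP-1 targets, 23 were tested in the shared model, and 2 passed, both lower: the chemokine gene *CXCL8* (-1.67, adjusted P = 0.004) and the angiogenic factor gene *VEGFA* (-0.78, adjusted P = 0.0447). The median log2 fold change of the targets was 0.08 in U87MG, where *IL11* and *S100A2* were called higher and *CXCL8*, *VEGFA* and *HMOX1* lower. It was -0.28 in U251MG, where *CXCL8* and *IL11* were among the genes called lower and none was called higher. Of 9 tested heat shock genes, *HSPB1* was called lower in U87MG (-1.24) and none was called in U251MG. *HSPA1B* passed the shared test (-0.77, adjusted P = 0.04), although its reads are uncertain because *HSPA1A* is a near-identical copy, and the medians were -0.18 in U87MG and 0.01 in U251MG.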

How the data were processed

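Messenger RNA of 4 libraries was sequenced. The authors used HISAT2 for alignment (GRCh38) and StringTie for FPKM. Library kits differ between the paper and the labels. The deposited table gives estimated counts and FPKM for 216388 RNAs, and which tool made its counts was not given in the sources used here. The 10 other value columns (TPM and the authors' means) were not used, and 31346 circular RNAs were left out. Deposited counts of 185042 linear RNAs were summed by Entrez gene and rounded to whole numbers. Log2 CPM with TMM scaling used a prior count of 2, and genes needed 10 counts in 1 library. Shared effects were fitted with edgeR 4.0.16 in R 4.3.3 (quasi-likelihood test, cell line block, adjusted P threshold 0.05) and, as an alternative, DESeq2 1.42.0. The exact intervals took each library's total as fixed. Both tests were tested on simulated data. The cell line block was the only pairing, since replicates carry no numbers. The members and lists were chosen with earlier results of these data known. From each list, genes past 2-fold with equal sign in U87MG and U251MG or passing the shared test were named, up to 4 per direction and ranked by the smaller of their absolute log2 fold changes. Pathway lists without such genes are represented by their 2 genes of highest mean CPM, while marker lists are given by their sums with their defining or dominant genes. Other list genes were named after their values were seen. A gene that met these rules is not reported here.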

Additional observations from a re-analysis of the deposited data

Results flagged for a closer look

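For 3 of the 10 genes the shFLI1 library was above its control in U87MG and below it in U251MG. The difference between the cell lines was not tested, because 1 library per arm leaves no residual degree of freedom for it. The log2 fold change of *EGR1* was 1.04 in U87MG and -0.74 in U251MG, and neither counting interval included 0. That of *FOS* was 0.66 and -0.87, from 26 to 81 reads a library. That of *FOSB* was 0.55 and -0.30, and both counting intervals included 0. Over the 16384 genes tested in both cell lines, 3051 were higher in U87MG and lower in U251MG, and 2928 the reverse.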

How the results depend on the processing

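No library could be left out, since each arm had 1. Of 140 fold changes of the 10 genes under alternatives, 111 stayed inside the counting interval and 4 changed sign: *FOSL1* in U87MG, at 0.07 with total counts and 0.06 with both FPKM scales, and *FOSB* in U251MG, at 4.09 with its most counted RNA alone. In U87MG, 1979 genes were called, but 681 with log2(FPKM + 1), 555 with at least 100 counts and 3529 at 1.5-fold. Of the 10 genes, 0 were called there after thinning, 2 with the most counted RNA and 4 at 1.5-fold, and their median was -0.042 with total counts, -0.0444 with log2(FPKM + 1) and -0.0546 with log2(FPKM + 0.1). In U251MG, 1488 genes were called, but 450 with log2(FPKM + 1), 2245 with the most counted RNA, 400 with at least 100 counts and 2810 at 1.5-fold, and of the 10 genes 1 with either FPKM scale and 7 at 1.5-fold, with a median of -0.49 for log2(FPKM + 1). Total counts moved the median of all U87MG genes from 0.06 to 0.22 and the share of calls that were higher from 63.3% to 75.0%, and 3 of the 10 genes lay above that median in either case. The share higher in U251MG was 51.1%, and 33.8% with at least 100 counts. The shared effect called 509 genes and 1 of the 10, but 1303 and 4 when a single count in any library sufficed. The genes added there were *FOSL1* (edgeR adjusted P = 1.16e-06), *FOSL2* (0.0302) and *JUND* (0.0467). Without the block, edgeR called 0 and 0, and 725 genes and 2 of the 10 had an unadjusted P below 0.05. DESeq2 called 401 and 1, and scaling over all genes, chosen after seeing the data, 373 and 1. Cell lines differed in 3100 genes and 2 of the 10, but in 1820 genes by DESeq2, in 531 and 1 without the block, in 4 of the 10 with at least 1 count, and in 1 with at least 100 counts in every library, a filter that *IER3* does not pass. Of 134 fitted values of the 10 genes, 127 kept their call. Of 84 shares of the Fos and Jun sum, 28 moved by 5 points or more. Read numbers limit *FOS*, *FOSB* and, in U87MG, *IER3*. The causes of these shifts were not tested.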

Other observations

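Chosen after its values were seen, the AP-1 target *IL11*, a cytokine gene, was called in opposite directions in the 2 cell lines. It had 91 reads in the U87MG control and 602 in U87MG shFLI1, and 524 and 319 in the corresponding U251MG libraries, or 7.95, 27.1, 29.4 and 10.7 CPM. As log2 fold changes, the values were 1.76 (95% exact interval 1.45 to 2.1) in U87MG and -1.46 (-1.67 to -1.26) in U251MG. Of the 16384 genes tested in both cell lines, 61 were called in opposite directions. *CCN2*, an immediate early gene for a matrix protein that was also chosen after its values were seen, stood at 599, 1163, 383 and 304 CPM in the order U87MG control, U87MG shFLI1, U251MG control and U251MG shFLI1, with log2 fold changes of 0.96 and -0.33. *SOCS3*, an inhibitor of cytokine signalling, moved the other way, at -0.71 in U87MG and 0.74 in U251MG. None of these differences between cell lines was tested.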
